A study of Homo sapiens with 6 samples.

Results

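The genes described here are the clustered core histone genes, taken as every protein-coding gene of the deposited table whose symbol begins with HIST1, HIST2, HIST3 or HIST4 followed by H2A, H2B, H3 or H4. They were 65 of 58735 genes in the table, of which 19951 are protein-coding, with 17 H2A, 18 H2B, 15 H3 and 15 H4 genes. By the annotation, 49 of them lie on chromosome 6, 15 on chromosome 1 and 1 on chromosome 12. The study sequenced mRNA of the human ovarian cancer line HEY, in cells that carried the empty vector (Vector, 3 libraries) or a plasmid for overexpression of CSGALNACT2 (oeCSGALNACT2, 3 libraries). CSGALNACT2 encodes a Golgi enzyme of chondroitin sulfate synthesis, and all 6 libraries came from the same line grown in DMEM with serum. The article gives the backbone of the plasmid as pLVX-IRES-Puro and speaks of transfection in one place and of stable overexpression in another. Nothing in the labels tells whether a group's libraries are separate cultures, and p-values therefore reflect the spread among these 6 libraries alone, which may be technical.

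The 4 core histones form the protein spool around which DNA is wound in the nucleosome, and most of their mRNA is made in S phase, when the replicated DNA needs new histones. Replication-dependent histone mRNAs are known to end in a conserved stem-loop in place of a poly(A) tail, which is bound by the stem-loop binding protein SLBP. They are cut there with the help of the U7 snRNP. Several of these genes, HIST1H2BD, HIST1H2BK, HIST2H2BE and HIST1H2AC among them, are also known to yield longer, polyadenylated transcripts. The libraries were made with an mRNA kit, so how well transcripts without a poly(A) tail were captured was not tested.

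The stem-loop of 16 bases, which marks the ordinary 3′ end of these mRNAs, was found in the annotated transcripts of 32 of the 65 genes, in 6 sequence forms. The following 6 genes were chosen to show the forms carried by genes that the results turn on. Each is printed 5′ to 3′ as DNA with the stem-loop in capitals and 5 bases on either side, from the GENCODE 29 transcripts.
HIST2H2BE: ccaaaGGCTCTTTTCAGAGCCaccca
HIST1H2BC: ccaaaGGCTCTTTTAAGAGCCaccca
HIST1H2AC: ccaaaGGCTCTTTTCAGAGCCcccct
HIST1H3E: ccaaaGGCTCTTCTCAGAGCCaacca
HIST1H4H: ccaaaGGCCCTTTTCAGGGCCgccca
HIST1H4I: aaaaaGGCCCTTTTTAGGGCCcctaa
HIST2H2BE and HIST1H2AC carried the most frequent form, found in 17 genes, and HIST1H2BC a form with an A in the loop, found in 5 genes. The form of HIST1H3E was found in that gene alone among the 65. HIST1H4H carried a form found in 5 genes and HIST1H4I a form found in 3. In the annotation the transcript ran on after the stem-loop for 1729 bases in HIST2H2BE, 1655 in HIST1H4H, 1128 in HIST1H2AC, 116 in HIST1H2BC and 39 in HIST1H2BD. The annotated transcript of HIST1H2BK, which had the most reads, holds no such stem-loop and is 381 bases long. The stem-loop was found in 24 of the 26 genes with 775 to 5477 bases of annotated exons. It was found in 8 of the 39 genes with 297 to 564 bases. An annotated transcript that stops before the 3′ end of the mRNA cannot show it. Whether the mRNAs of HIST1H2BK and the other genes without a match carry a stem-loop was not tested.

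Levels are given as FPKM, in which a gene's reads are corrected for its length and for the size of the library, so that genes can be compared with each other. Each library held between 15628834 and 18186682 reads over all genes. CSGALNACT2 itself was at 15.3, 8.18 and 8.13 FPKM in Vector and at 535, 453 and 409 FPKM in oeCSGALNACT2 libraries, while the titles of the oeCSGALNACT2 samples name its paralog CSGALNACT1. In both groups replicate 1 stood apart. Over the 11479 genes that averaged 1 FPKM or more, on log2(FPKM + 1), it correlated with the rest of its group at 0.887 to 0.913. Replicates 2 and 3 correlated at 0.990 in Vector and at 0.985 in oeCSGALNACT2. The mitochondrial share of the reads was 2.77% to 3.61% in Vector and 4.60% to 4.82% in oeCSGALNACT2 libraries, and their part in the results was not tested. Of 9 markers of ovarian carcinoma epithelium, 4 were under 1 FPKM on average. KRT8 and KRT18 were high, CDH1 and MUC16 were near 0, and the summed level of the markers was 158 to 284 FPKM in Vector and 310 to 512 FPKM in oeCSGALNACT2 libraries. The 3 leukocyte markers summed to at most 0.106 FPKM, with CD3E at 0, and the 3 fibroblast markers to at most 5.38 FPKM. The 3 endothelial markers summed to 19.9 to 31.0 FPKM in Vector and 6.25 to 10.4 FPKM in oeCSGALNACT2 libraries, nearly all from CDH5, and the part of these differences in the results was not tested.

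The question was how the level of the core histone mRNAs differed between Vector and oeCSGALNACT2 cells. The core histone genes together took 95.9, 100 and 101 reads per 1000000 reads of the library (RPM) in Vector replicates 1, 2 and 3 and 290, 249 and 266 RPM in oeCSGALNACT2 replicates 1, 2 and 3. The groups did not overlap, and the means were 99.1 ± 2.86 and 268 ± 20.4 RPM (SD, n = 3 libraries each), 2.71-fold apart. In bulk RNA from an mRNA kit, more cells in S phase, more histone mRNA per cell and a larger share of it with a poly(A) tail cannot be told apart. HIST1H2BK alone held 29.7% of the reads of the core histone genes, and without it the means were 74.0 ± 9.74 and 185 ± 39.7 RPM (SD, n = 3 libraries each), 2.51-fold apart. These sums describe the genes and were not tested.

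All 4 families had a higher summed level in oeCSGALNACT2 cells, with no overlap of the groups. The H2B genes, whose protein pairs with H2A in the nucleosome, summed to 44.5, 103 and 98.4 FPKM in Vector and 197, 290 and 301 FPKM in oeCSGALNACT2 libraries, 3.21-fold apart in the means. The H3 genes, which supply the histone that carries many of the best known chromatin marks, summed to 1.20, 2.95 and 1.61 FPKM in Vector and 8.83, 6.10 and 7.85 FPKM in oeCSGALNACT2 libraries. The H3 means were 3.96-fold apart and 3.06-fold apart without replicate 1. The H4 genes, whose protein pairs with H3, summed to 22.4, 10.7 and 12.4 FPKM in Vector and 51.7, 27.0 and 30.8 FPKM in oeCSGALNACT2 libraries, 2.41-fold apart. The H2A genes summed to 25.0, 21.8 and 20.8 FPKM in Vector and 48.3, 35.0 and 38.6 FPKM in oeCSGALNACT2 libraries, 1.81-fold apart. The H2A sum rested on HIST1H2AC. Without it the H2A means were 6.03 ± 1.28 and 7.52 ± 2.16 FPKM (SD, n = 3 libraries each), and the groups overlapped.

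**Figure D1:**
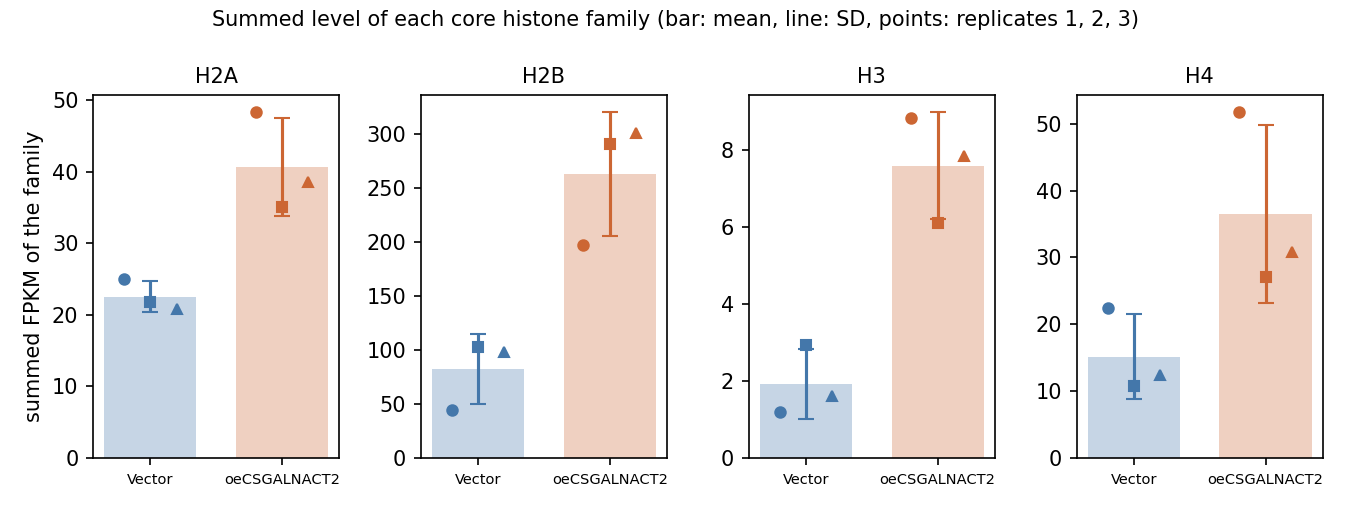
Summed FPKM of the H2A, H2B, H3 and H4 genes in each library, with bars for the group mean, lines for the SD and points for replicates 1 (circle), 2 (square) and 3 (triangle), each panel on its own axis from 0. In every family the 3 oeCSGALNACT2 libraries lie above the 3 Vector libraries, and the H2B sum of replicate 1 is the lowest of its group in both groups.

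Of the 65 genes, 53 had at least 1 read and 14 reached the mean of 1 FPKM at which genes were tested. Among these 14, 5 rose in oeCSGALNACT2 cells at an adjusted p under 0.05 in limma on log2(FPKM + 1), where 0.505% of all 11479 tested genes rose. They were the H4 gene HIST1H4H and the H2B genes HIST1H2BC, HIST1H2BG, HIST2H2BE and HIST1H2BD. None fell in limma, and neither edgeR nor DESeq2 called any lower. Before adjustment, 12 of the 14 were higher and 0 lower at a p under 0.05 in limma, where 7.8% of all tested genes were higher. The median log2 fold change of the 14 genes was 1.10, against -0.009 over all tested genes, and 13 of the 14 had a positive value. In 11 of the 14 the lowest oeCSGALNACT2 library was above the highest Vector library, where 11.2% of all tested genes showed this. The filter used the mean of all 6 libraries, so a gene low in Vector could pass it through its oeCSGALNACT2 values. This held for HIST1H4H, HIST1H2BC, HIST1H2BG, HIST1H2BH, HIST1H3E, HIST1H3H and HIST1H2AE, whose Vector means were under 1 FPKM. The direction of these genes was therefore partly set by the filter.

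With the replicate number as a block, which compares libraries of the same number, 12 of the 14 genes rose, where 21.2% of all tested genes rose. HIST3H2A and HIST1H2AE did not pass. On the reads recovered from the FPKM values, edgeR's quasi-likelihood test called 4 of 21 core histone genes higher, where 0.419% of all genes rose. DESeq2 gave 25 core histone genes an adjusted p and called 12 of them higher, where 1.94% of all genes with an adjusted p rose. With only 3 libraries per group the calls were sensitive to single libraries. Without Vector replicate 1 limma called 1 core histone gene higher and without oeCSGALNACT2 replicate 1 it called 3, while without Vector replicate 2, Vector replicate 3, oeCSGALNACT2 replicate 2 or oeCSGALNACT2 replicate 3 it called 0.

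**Figure D2:**
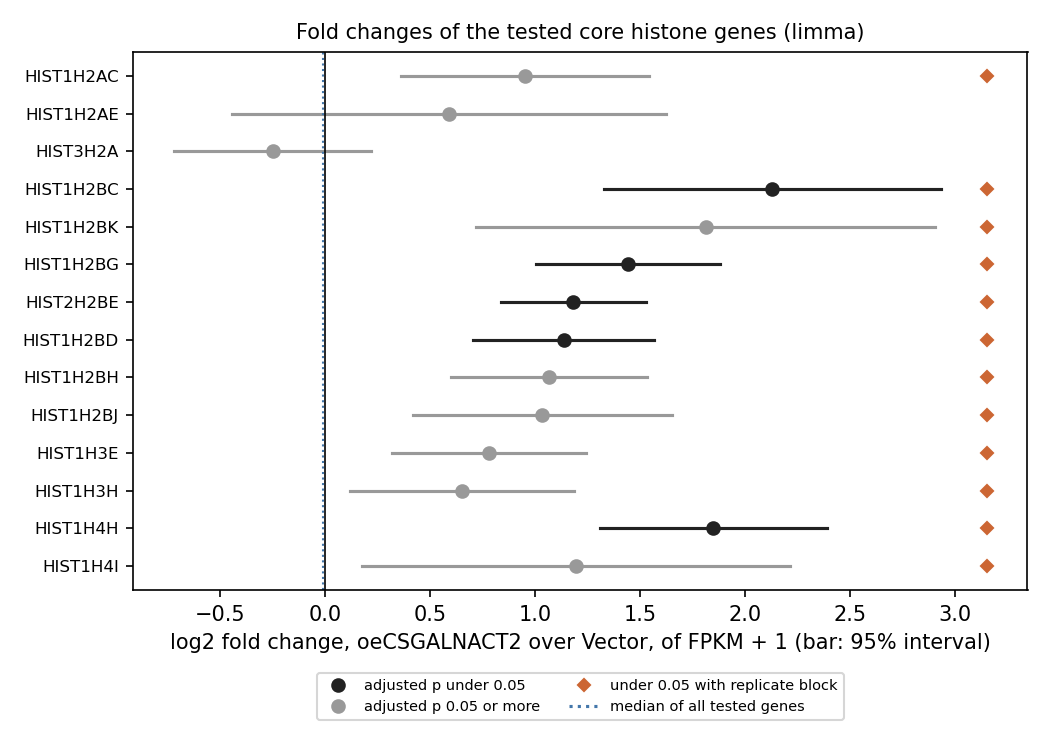
Log2 fold changes of FPKM + 1, oeCSGALNACT2 over Vector, of the 14 tested core histone genes from limma, with 95% intervals, in the order H2A, H2B, H3 and H4. Black marks the 5 genes with an adjusted p under 0.05, diamonds mark the 12 genes under 0.05 with the replicate block, and HIST3H2A is the only gene of the 14 with a negative value, -0.25.

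HIST1H4H showed the largest ratio of group means among the 14 tested genes. It encodes histone H4 and occupies positions 26277609 to 26285638 of chromosome 6 (GRCh38), on the minus strand, with 4 annotated transcripts. It was at 0.337, 0.205 and 0.219 FPKM in Vector, from 12, 8 and 8 reads, and at 5.08, 3.04 and 2.73 FPKM in oeCSGALNACT2 libraries, from 179, 112 and 108 reads. The groups lay far apart, 14.3-fold in the means, and the ratio was 15.1, 14.8 and 12.5 within replicates 1, 2 and 3. On the log2(FPKM + 1) scale, which understates the change of genes with low FPKM, the difference was 1.85 (SE 0.22, adjusted p = 0.0236 in limma). In edgeR, on the reads, the log2 fold change was 3.85 (adjusted p = 0.0159). When single libraries were left out, HIST1H4H stayed higher, and its adjusted p in limma lay between 0.0251 and 0.196.

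The other tested H4 gene, HIST1H4I, was the third most abundant core histone gene. It was at 18.7, 8.52 and 7.72 FPKM in Vector and at 41.7, 18.1 and 23.1 FPKM in oeCSGALNACT2 libraries, where replicate 1 was the highest of both groups and Vector replicate 1 lay above oeCSGALNACT2 replicate 2. The groups overlapped, but the ratio was 2.23, 2.12 and 2.99 within replicates 1, 2 and 3. The log2 fold change was 1.19 (SE 0.42) with an adjusted p of 0.224 in limma and 0.00141 with the replicate block. HIST1H4I lies on chromosome 6 on the plus strand, within the 8566 bases that RefSeq gives on the minus strand to the gene of HIST1H2BK. Since strand use in the counting is not stated, reads of these genes on opposite strands cannot be told apart.

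By FPKM, which rests here on a model of 381 bases, HIST1H2BK was the most abundant core histone gene in every library. By reads, HIST1H2AC was ahead of it in replicate 1, with 554 against 182 in Vector and 1176 against 931 in oeCSGALNACT2. HIST1H2BK encodes an H2B and was at 29.1, 87.4 and 79.2 FPKM in Vector and at 150, 245 and 247 FPKM in oeCSGALNACT2 libraries, from 182 to 1720 reads. The groups did not overlap (p = 0.1 in a two-sided exact permutation test, the lowest p available to 3 against 3 libraries), and replicate 1 was the lowest of its group in both groups. The ratio was 5.17, 2.80 and 3.12 within replicates 1, 2 and 3. The log2 fold change was 1.81 (SE 0.45), with an adjusted p of 0.117 in limma and 0.00177 with the replicate block. Of the 100-base windows of its transcript, 28.4% also occur in H2BFS, a near-identical gene, which had no more than 0.134 FPKM in any library.

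The other H2B genes above the filter shared the direction of HIST1H2BK. HIST1H2BD, on chromosome 6 from 26158146 to 26171349, was at 7.75, 6.55 and 8.61 FPKM in Vector and at 20.8, 17.0 and 16.2 FPKM in oeCSGALNACT2 libraries. Its groups did not overlap, and its log2 fold change was 1.14 with an SE of 0.18 (adjusted p = 0.0476 in limma and 0.0599 in edgeR). HIST2H2BE, on chromosome 1 from 149884459 to 149886652, was the steadiest of them, at 2.30, 2.30 and 2.53 FPKM in Vector and at 6.38, 6.27 and 7.35 FPKM in oeCSGALNACT2 libraries. It differed 2.81-fold in the means, and its log2 fold change was 1.18 with an SE of 0.14 (adjusted p = 0.0236 in limma and 0.0399 in edgeR).

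HIST1H2BC, on chromosome 6 from 26114873 to 26123926, was at 0.0729, 1.20 and 1.49 FPKM in Vector, from 1, 18 and 21 reads, and at 6.33, 6.48 and 7.93 FPKM in oeCSGALNACT2 libraries, from 86, 92 and 121 reads. The groups did not overlap. The ratio was 86.9 within replicate 1, where Vector had 1 read, and 5.42 and 5.33 within replicates 2 and 3. The log2 fold change was 2.13 (SE 0.33), or 1.75 without Vector replicate 1, with an adjusted p of 0.0472 in limma and 0.117 in edgeR. HIST1H2BG, on chromosome 6 from 26215159 to 26216692, was at 0.238, 0.433 and 0.655 FPKM in Vector and at 2.72, 2.60 and 3.39 FPKM in oeCSGALNACT2 libraries, again with no overlap. Its log2 fold change was 1.44 (SE 0.18, adjusted p = 0.0262 in limma and 0.0483 in edgeR). When single libraries were left out, the adjusted p in limma ranged from 0.0437 to 0.208 for HIST2H2BE, from 0.0488 to 0.197 for HIST1H2BG, from 0.0278 to 0.227 for HIST1H2BC and from 0.0631 to 0.283 for HIST1H2BD.

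HIST1H2BJ, also an H2B gene, was at 4.48, 3.27 and 4.35 FPKM in Vector and at 6.72, 8.84 and 13.1 FPKM in oeCSGALNACT2 libraries. Its groups did not overlap, and the log2 fold change of 1.03 (SE 0.26) had an adjusted p of 0.113 in limma and 0.00894 with the replicate block. HIST1H2BH, named after its values were seen because it completes the tested H2B genes, was at 0.384, 0.323 and 0.402 FPKM in Vector and at 2.36, 1.28 and 2.07 FPKM in oeCSGALNACT2 libraries. It missed the threshold in limma (log2 fold change 1.07, adjusted p = 0.061) and passed it in edgeR (log2 fold change 2.39, adjusted p = 0.0488). All 7 tested H2B genes thus had groups that did not overlap, where 11.2% of all tested genes were higher without overlap. HIST1H2BC, HIST1H2BG and HIST1H2BH had Vector means under 1 FPKM, so their direction was partly set by the filter.

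**Figure D3:**
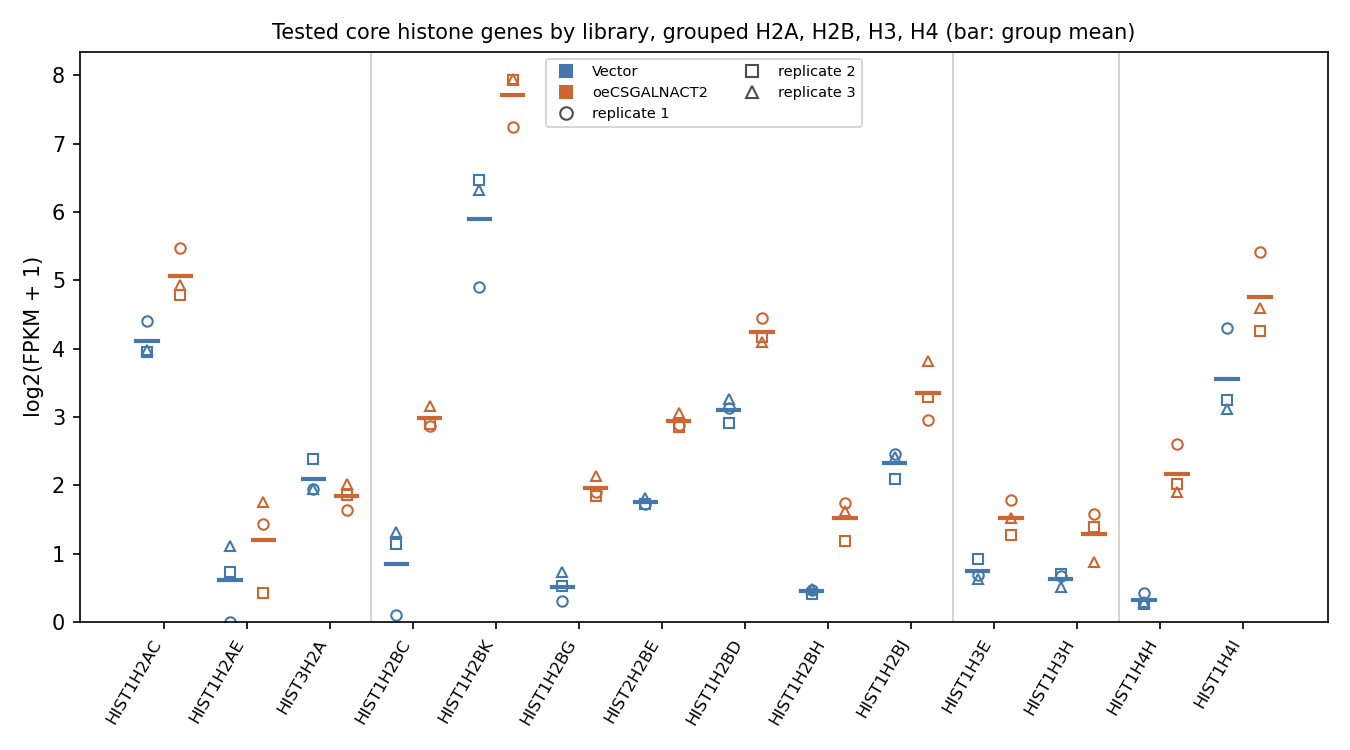
Level of each of the 14 tested core histone genes in each library as log2(FPKM + 1), grouped into H2A, H2B, H3 and H4, with symbols for the replicate number and bars for the group mean. The groups separate for 11 genes and overlap for HIST1H2AE, HIST3H2A and HIST1H4I, and replicate 1 (circles) is low for HIST1H2BK and high for HIST1H4I and HIST1H2AC in both groups.

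None of the 3 tested H2A genes passed the threshold in limma, where 1 was higher at an unadjusted p under 0.05. HIST1H2AE was below the filter of edgeR, which called neither of the others, and DESeq2 called HIST1H2AC higher. HIST1H2AC, which had the highest level of the H2A genes, was at 20.2, 14.4 and 14.8 FPKM in Vector and at 43.3, 26.5 and 29.6 FPKM in oeCSGALNACT2 libraries. The groups did not overlap, and the log2 fold change was 0.95 (SE 0.25), with an adjusted p of 0.125 in limma and 0.000875 with the replicate block. HIST3H2A, from the small cluster on chromosome 1, was at 2.85, 4.21 and 2.84 FPKM in Vector and at 2.13, 2.63 and 3.06 FPKM in oeCSGALNACT2 libraries. Its groups overlapped, and the interval of the log2 fold change ran from -0.72 to 0.22. HIST1H2AE had 0, 6 and 10 reads in Vector and 14, 3 and 22 reads in oeCSGALNACT2 libraries, again with overlap, and its interval ran from -0.44 to 1.62.

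Neither of the 2 tested H3 genes passed in limma or edgeR, though both had an unadjusted p under 0.05 in limma and groups that did not overlap, and DESeq2 called 1 of them higher. HIST1H3E was at 0.613, 0.889 and 0.551 FPKM in Vector and at 2.43, 1.43 and 1.88 FPKM in oeCSGALNACT2 libraries. The log2 fold change of 0.78 (SE 0.19) had an adjusted p of 0.111 in limma, 0.022 with the replicate block and 0.0333 in DESeq2. HIST1H3H was at 0.590, 0.627 and 0.430 FPKM in Vector and at 1.99, 1.61 and 0.840 FPKM in oeCSGALNACT2 libraries, and the log2 fold change was 0.65 with an SE of 0.22 (adjusted p = 0.204 in limma and 0.0303 with the replicate block).

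Below the filter, 39 core histone genes had reads. They were tested in limma only without the filter, where none of the 53 genes with reads passed, while 31 of all 28102 genes did. In that fit 19 of the 53 were higher and 1 lower at an unadjusted p under 0.05, and the share over all genes was not computed. Without a filter, edgeR called 7 of the 53 higher, and 365 of all 28102 genes in either direction. Of the 39, 17 had fewer than 10 reads in all 6 libraries together. Summed, they gave 82, 112 and 165 reads in Vector and 313, 351 and 307 reads in oeCSGALNACT2 libraries, 2.75-fold apart in RPM. More reads fell in the oeCSGALNACT2 group for 30 of these genes, fewer for 6 and as many for 3. The same split over all genes below the filter was not computed. Some of them are named here after their values were seen, as the points farthest from equality. HIST1H3G, an H3 gene, had 0, 4 and 3 reads in Vector and 31, 37 and 29 reads in oeCSGALNACT2 libraries, and it passed in DESeq2 (adjusted p = 0.00138) but not in edgeR (adjusted p = 0.0728). HIST1H4K, an H4 gene, went the other way, with 9, 6 and 5 reads in Vector and 0, 5 and 1 reads in oeCSGALNACT2 libraries, a difference on few reads. Every 100-base window of HIST1H4K also occurs in HIST1H4J, which had 4 reads in Vector and 11 in oeCSGALNACT2 libraries, so the reads of these genes are uncertain as well. HIST2H4A had 0, 1 and 0 reads in Vector and 68, 7 and 1 reads in oeCSGALNACT2 libraries, nearly all in replicate 1. Its transcript shares every 100-base window with HIST2H4B, so the reads of these copies are uncertain, although HIST2H4A was among the calls of DESeq2 (adjusted p = 0.0124).

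**Figure D4:**
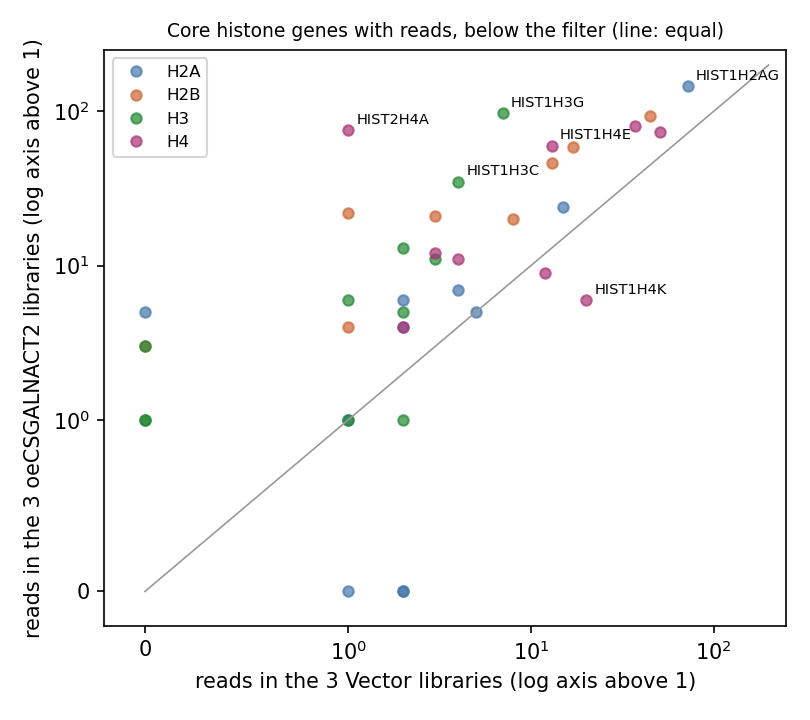
Reads summed over the 3 Vector libraries (x axis) and the 3 oeCSGALNACT2 libraries (y axis), on axes that are logarithmic above 1, of the 39 core histone genes with reads that lay below the filter. Of these, 30 lie above the line of equal reads, among them HIST1H3G with 7 and 97 reads, and HIST1H4K lies below it with 20 and 6.

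Whether a core histone gene was read at all went with the length of its annotated model. Models were called long when their exons covered more than 600 bases, which leaves room for a transcript beyond the ordinary histone mRNA. All 26 long models had reads, and 18 of them in all 6 libraries. Of the 39 short models, 27 had reads and 1 had them in all 6 libraries. A longer model also collects more reads at the same level. In FPKM, which corrects for length, the median of the gene means was 0.766 for long and 0.0806 for short models. Of the 14 tested genes, 12 have long models, HIST1H2BK and HIST1H2AE being the exceptions. The 12 genes without a read all have short models, and a count of 0 in a library allows up to 0.192 RPM at the lowest depth. This limit does not bound 3 of them, HIST1H3D, HIST1H2AD and HIST2H3PS2, which lie over another gene on the same strand. That gene is AL031777.3 for HIST1H3D and HIST1H2AD and AC239798.4 for HIST2H3PS2, so that their reads may have been counted there or left out. HIST1H2AK, also without a read, overlaps HIST1H2BN on the other strand. As strand use in the counting is not stated, the limit may not bound HIST1H2AK either.

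The number of short models with a read differed more by replicate number than by group. Short models with reads numbered 5, 18 and 19 in Vector and 7, 18 and 18 in oeCSGALNACT2 replicates 1, 2 and 3. Their reads summed to 209, 645 and 553 in Vector and to 974, 1661 and 1833 in oeCSGALNACT2 replicates, so that the groups did not overlap. Most of these were reads of HIST1H2BK. Without HIST1H2BK the short models had 27, 44 and 42 reads in Vector and 43, 74 and 113 in oeCSGALNACT2 replicates, and the groups overlapped. Long models with reads numbered 18, 24 and 21 in Vector and 23, 24 and 24 in oeCSGALNACT2 replicates. Replicate 1 thus had the fewest short models with a read in both groups. HIST1H2BK, a short model as well, took 11.4%, 33.8% and 30.0% of the core histone reads in Vector and 20.6%, 38.0% and 35.5% in oeCSGALNACT2 replicates 1, 2 and 3. What set replicate 1 apart was not tested. Without replicate 1 of either group the summed FPKM of the core histone genes was 2.71-fold higher in oeCSGALNACT2 libraries, against 2.86-fold with it.

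**Figure D5:**
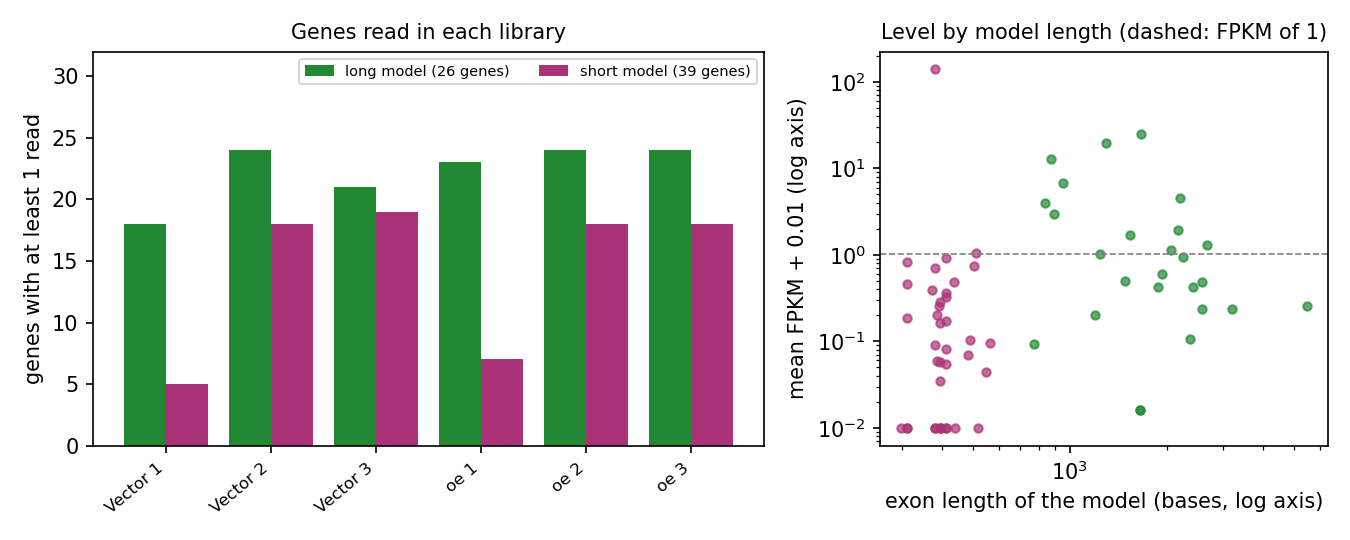
Left, the number of core histone genes with at least 1 read in each library, for 26 long models (exons over 600 bases) and 39 short models. Right, mean FPKM + 0.01 over the 6 libraries against exon length, both on log axes, in the same colours. Short models with reads number 5 and 7 in replicate 1 of Vector and oeCSGALNACT2 and 18 to 19 elsewhere, and HIST1H2BK is the short model far above the others.

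Many H2A and H2B genes stand head to head, with their starts close together and one promoter region between them, and 12 pairs of neighbouring core histone genes within 1000 bases of each other were found in the annotation. Levels within a pair are compared as mean FPKM over the 6 libraries. HIST1H2BK was at 140 FPKM, from 5532 reads, and its H2A neighbour HIST1H2AH, 330 bases away, at 0.192 FPKM, from 8 reads. HIST2H2BE was at 4.52 FPKM and its neighbour HIST2H2AC at 0.248 FPKM. HIST2H2BE had 268 reads in Vector and 757 in oeCSGALNACT2 libraries, against 5 and 5 for HIST2H2AC, whose reads were 0, 3 and 2 in Vector and 1, 4 and 0 in oeCSGALNACT2 libraries. In these pairs the H2B gene was the higher one. In the pair of HIST1H2BC and HIST1H2AC, 218 bases apart, the H2A gene was higher, at 24.8 FPKM against 3.92 FPKM.

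HIST1H2BJ averaged 6.80 FPKM, and its H2A neighbour HIST1H2AG was at 0.784, 0.542 and 0.551 FPKM in Vector and at 1.07, 1.46 and 1.24 FPKM in oeCSGALNACT2 libraries. Its groups did not overlap and it lay just below the filter, with a mean of 0.94 FPKM, while HIST1H3H, the lowest gene that was tested, had a mean of 1.01 FPKM. HIST3H2A had 153 reads in Vector and 121 in oeCSGALNACT2 libraries, and its H2B neighbour HIST3H2BB had 1 and 22, with 0, 1 and 0 reads in Vector and 13, 4 and 5 in oeCSGALNACT2. HIST1H2BG and HIST1H2AE were close in level, at 1.67 and 1.04 FPKM on average, and had 35 and 16 reads in Vector and 231 and 39 reads in oeCSGALNACT2 libraries.

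Promoter sequences from 250 bases before to 50 after the RefSeq start (GRCh38.p14) were matched for 55 of the 65 genes. The motifs searched on both strands were the TATA box TATAAA, the CCAAT box CCAAT and the octamer ATTTGCAT, which is known from H2B promoters as the site of the factor OCT1. The octamer was present in 9 of 13 H2B, 11 of 16 H2A, 1 of 13 H3 and 0 of 13 H4 promoters, and in 1.77% of all 35116 promoters. These counts are not independent. The H3 match, HIST1H3D, has the same RefSeq window as HIST1H2AD, and 8 of the 16 H2A windows, 5 of them with an octamer, overlap the window of an H2B gene. CCAAT was present in all 13 H2B, all 16 H2A and all 13 H3 promoters and in 3 of 13 H4 promoters, against 34.6% of all promoters. TATAAA was present in 38 of the 55, against 11.5% of all promoters. Those of 2 genes that rose, one of each family with calls, are shown with these motifs in capitals, the octamer overlapping neither of the others, each on the minus strand, HIST2H2BE from chr1:149886633-149886932 and HIST1H4H from chr6:26285485-26285784.
HIST2H2BE: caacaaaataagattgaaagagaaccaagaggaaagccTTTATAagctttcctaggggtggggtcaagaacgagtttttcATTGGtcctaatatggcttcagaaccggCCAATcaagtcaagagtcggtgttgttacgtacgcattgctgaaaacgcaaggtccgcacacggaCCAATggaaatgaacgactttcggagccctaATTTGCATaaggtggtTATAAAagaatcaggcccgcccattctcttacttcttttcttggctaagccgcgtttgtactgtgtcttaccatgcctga
HIST1H4H: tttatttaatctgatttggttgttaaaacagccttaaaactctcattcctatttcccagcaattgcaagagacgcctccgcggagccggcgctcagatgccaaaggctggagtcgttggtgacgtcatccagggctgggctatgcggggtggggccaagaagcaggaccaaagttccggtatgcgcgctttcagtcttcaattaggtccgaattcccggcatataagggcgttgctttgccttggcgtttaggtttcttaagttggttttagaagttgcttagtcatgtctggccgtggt
The H2B promoter held all 3 motifs, while none of them was found in this window of HIST1H4H, the gene with the largest ratio of means. HIST1H2BD rose as well, and its promoter held TATAAA and CCAAT but no octamer. A match describes letters in the sequence and was not tested for binding.

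Genes that act on core histone mRNA were described as a separate list. Of 18 genes for the transcription, 3′ processing and decay of these mRNAs, all were tested. None passed in limma or edgeR, 3 had an unadjusted p under 0.05 in limma and DESeq2 called 1 higher. With the replicate block 8 were higher and 3 lower, where 21.2% of all tested genes were higher and 5017 of 11479 passed in either direction. The median log2 fold change was 0.14. Their summed level was 179 to 198 FPKM in Vector and 216 to 235 FPKM in oeCSGALNACT2 libraries, without overlap. SLBP was at 19.5, 15.1 and 14.8 FPKM in Vector and at 38.8, 23.4 and 26.8 FPKM in oeCSGALNACT2 libraries, with no overlap, a log2 fold change of 0.79 (SE 0.24) and an adjusted p of 0.166 in limma and 0.00232 with the replicate block. NPAT, the coactivator of histone gene transcription, was at 7.33, 5.06 and 4.79 FPKM in Vector and at 9.51, 6.61 and 6.05 FPKM in oeCSGALNACT2 libraries, with overlap, a log2 fold change of 0.32 (SE 0.23) and an adjusted p of 0.559 in limma and 0.0153 with the replicate block.

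Of 25 genes of S phase, 7 rose and none fell in limma, where 0.505% of all tested genes rose, and the median log2 fold change was 0.88. With the replicate block 21 rose, where 21.2% of all tested genes were higher, a share that also applies to the lists that follow. Among the 7 that rose in limma were the helicase subunit genes MCM4 (log2 fold change 1.70) and MCM3 (1.49), the phosphatase gene CDC25A (1.48) and the uracil DNA glycosylase gene UNG (1.38). In HEY cells with CSGALNACT2 overexpressed, the article measured CDC25A by qRT-PCR as a proliferation marker, beside EdU and other proliferation assays. It reported no significant change in proliferation. How those assays relate to the levels given here was not tested. Of 20 genes of G2 and M phase limma, edgeR and DESeq2 called none, 2 had a limma p under 0.05 before adjustment, and 8 were higher and 3 lower with the replicate block. Of 20 tested histone chaperone genes none passed in limma or edgeR, 4 had an unadjusted p under 0.05 in limma, DESeq2 called 3 higher, and 9 were higher and 2 lower with the replicate block.

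The histone variants that are made outside S phase and the linker histones of the same clusters are shown for comparison. Of 9 tested variant genes limma, edgeR and DESeq2 called none, and 1 had a limma p under 0.05 before adjustment. With the replicate block 4 were higher and 1 lower, where 21.2% of all tested genes were higher, and the median log2 fold change was 0.15. Of the 6 clustered linker histone genes 4 had reads and 1 was tested, with a log2 fold change of 0.008, and none passed in limma, with or without the replicate block, in edgeR or in DESeq2, nor in limma at a p under 0.05 before adjustment. Their summed level was 21.1 to 26.6 FPKM in Vector and 22.4 to 24.0 FPKM in oeCSGALNACT2 libraries. Here the groups overlapped. The summed level of the variants was 324 to 352 FPKM in Vector and 429 to 487 FPKM in oeCSGALNACT2 libraries, and the groups did not overlap, as for the core families. The difference between these lists and the core histone genes was not tested.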

How the data were processed

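RNA of HEY cells was sequenced in 3 Vector and 3 oeCSGALNACT2 libraries, which were grouped by the sample descriptions. The authors deposited a table of read counts per gene, not normalized, of which the copy used here holds 1310 genes with 59.0% to 59.9% of the reads, and a table of FPKM values of 58735 genes, in which the authors scaled reads by gene length and library size. RNA had an RIN of at least 8.0, a SMARTER mRNA kit was used for the libraries, and no source used here gives the aligner, the counting tool or the strand setting. A mouse build (mm10) is named in the submitters' processing notes, but all 65 genes lie where GENCODE 29 places them on GRCh38.

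Reads were recovered by multiplying FPKM by gene length and a constant per library. Of the values above 0, 100% came out whole within 0.01 of a read, and all 1310 genes of the count table matched. As the copy of the count table is incomplete, limma 3.58.1 (R 4.3.3, trend) was fitted to log2(FPKM + 1) of those 11479 genes that averaged 1 FPKM or more, with Benjamini-Hochberg adjustment over all of them and a threshold of 0.05. The recovered reads were tested with edgeR 4.0.16 (quasi-likelihood) and DESeq2 1.42.0, and adjusted p-values that DESeq2 left empty stayed out. The gene tests were tested on simulated data. Limits from counts of 0 use 3 reads and cover counting error only.

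Deviations of same-numbered libraries from their group means correlated at 0.810, 0.631 and 0.686 across genes, so the numbers were taken as pairing the libraries. No label states this pairing. Vector replicate 3 and oeCSGALNACT2 replicate 2 also correlated, at 0.682, so pairing by number within replicates 2 and 3 is not shown.

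The genes given with every library were those past the threshold, the 3 tested genes of each family with the highest mean FPKM, genes with no read in 1 group and at least 10 in the other (there were none), and head-to-head neighbours of these within 1000 bases. Of the other lists SLBP, NPAT and up to 4 genes past the threshold were named. The members and lists were chosen with earlier results of these data known. Alternatives were a pseudocount of 0.1, other filters, size factors and tools, the replicate block, replicates 2 and 3 alone, and each library left out.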

Additional observations from a re-analysis of the deposited data

How the results depend on the processing

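Of 16 alternatives, the count of 5 core histone genes that rose became 0 of 53 when all genes with any FPKM above 0 were tested, 3 in edgeR with the size factors of DESeq2, 12 in DESeq2 and 11 in limma on replicates 2 and 3 only. With the replicate block it was 12 in limma and 13 in edgeR, and without single libraries it ranged from 0 to 3. No core histone gene fell in any of them. The count of all genes called, 155, became 31 with any FPKM above 0, 365 in edgeR without a filter, 731 in DESeq2, 4800 on replicates 2 and 3 only, 5017 with the replicate block in limma and 6058 with it in edgeR, and ranged from 5 to 159 without single libraries. The cause of these changes was not tested. The median log2 fold change of the 14 tested genes, 1.10, was 1.40 with a pseudocount of 0.1, 1.41 in edgeR without a filter and 1.45 in DESeq2. Over the 13 of them that passed the filter of edgeR, without HIST1H2AE, it was 1.51 in edgeR, 1.49 with the size factors of DESeq2 and 1.50 with the replicate block. All 205 fold changes of the 13 tested genes other than HIST3H2A were positive under the alternatives, while HIST3H2A stayed below 0, between -0.37 and -0.10, and never passed. The alternatives reuse the same 6 libraries, and where a gene's groups did not overlap, leaving out a library could not change its sign. These signs are therefore no independent support for the direction. Of the 221 values of single genes 156 stayed on their side of the threshold, 28 passed it only in the alternative and 37 only in the main test. Depth limits the 39 genes below the filter, 17 of which had fewer than 10 reads in all.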

Other observations

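The 3 genes with the most reads, HIST1H2BK, HIST1H2AC and HIST1H4I, held 66.4% of all reads of the core histone genes, and the 14 tested genes held 93.8%. HIST2H2BF, an H2B gene below the filter that was named after its values were seen, had 0, 5 and 12 reads in Vector and 0, 29 and 30 reads in oeCSGALNACT2 libraries, so that replicate 1 had none in either group.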
